A study of Mus musculus with 12 samples.

Results

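To investigate the effect of chronic exercise on the transcripts of the autophagy machinery in the liver, 10 genes were followed by their symbols in the liver transcriptome of mice: Optn, Sqstm1, Map1lc3a, Map1lc3b, Gabarapl1, Ulk1, Becn1, Atg5, Atg7 and Tfeb. All 10 were found among the 16821 genes listed, and all 10 were among the 10241 genes kept by a filter on low values. Liver RNA came from 12 adult male C57BL/6J mice that were 8 weeks old when they were bought. The 6 mice of the sedentary control (Con) group had no access to a treadmill, and the 6 mice of the chronic exercise (Exe) group had moderate treadmill training over 6 weeks, on 5 days of each week with 60 min a session. The saline-perfused livers were collected no later than 24 h after the final session, and each mouse gave 1 library, named by its group and replicate (Con 1 or Exe 5, for example). The labels name no transgene, deletion or drug. Values are in FPKM, a count of sequenced fragments divided by transcript length and library size. Being per length, they allow a rough comparison between genes, which rests on the transcript lengths used.

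Autophagy is the route by which a cell wraps part of its cytoplasm in a double membrane and delivers it to lysosomes for digestion. A kinase and a lipid kinase complex start the membrane, ubiquitin-like ATG8 proteins are attached to it by a conjugation machinery, and cargo receptors tie damaged mitochondria or protein aggregates to the ATG8 proteins. In the liver it supplies amino acids and fatty acids during fasting and removes damaged mitochondria. Much of its control acts on proteins, so that transcript levels do not measure its flux.

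None of the 10 genes differed between groups beyond the spread between mice. On the log2(FPKM + 1) scale, the mean of the Exe mice was lower for 8 genes and higher for 2 (Optn and Tfeb), by small amounts, with Optn lower in place of higher under quantile normalization. Of all genes tested, 57.5% were higher in Exe mice (52.9% under quantile normalization). The log2 fold changes of Exe over Con mice lay between -0.15 (Gabarapl1) and 0.017 (Tfeb), with a median of -0.026 beside 0.016 over all genes tested. With limma (a linear model fitted to all 10241 genes, with moderated variances) and Benjamini-Hochberg adjustment, an adjusted p of 0.05 was reached by 0 of the 10 genes and by 0% of all genes tested. The adjusted p of the 10 genes lay between 0.929 and 0.999. At an unadjusted p of 0.05, 0 of the 10 genes passed, beside 6.21% of all genes tested (4.27% higher and 1.94% lower in Exe mice). The groups overlapped for all 10 genes, whereas they did not overlap for 0.254% of the genes tested. The count of genes higher in Exe mice depended on single mice, from 1 gene without Con 3 or under quantile normalization to 5 genes without Con 2.

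**Figure D1:**
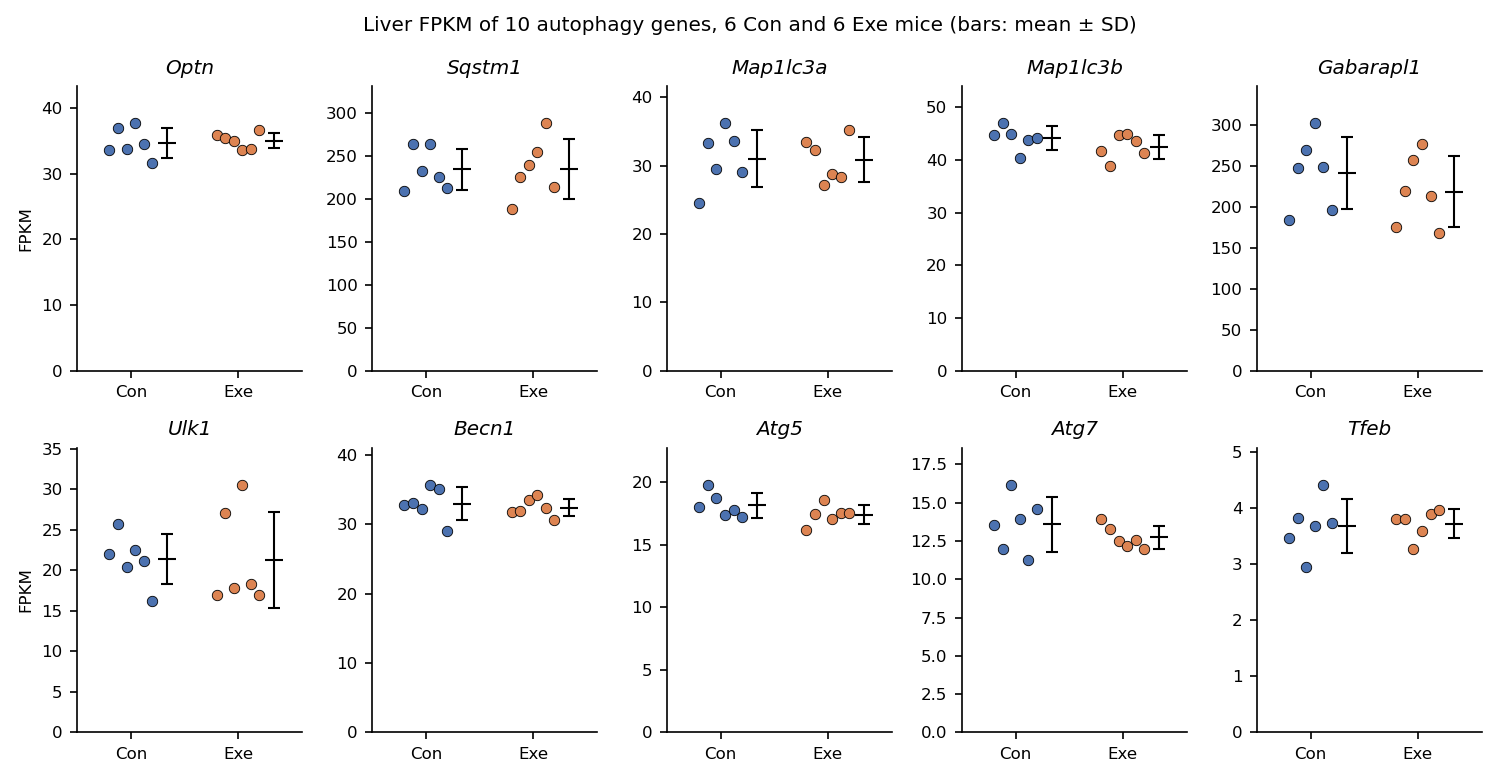
FPKM of each of the 10 autophagy genes in the 6 Con (blue) and 6 Exe (orange) mice, with a point for each mouse and the mean ± SD beside the points (vertical axes in FPKM, from 0). The points of both groups overlap in every panel, and Ulk1 and Gabarapl1 show the widest spread.

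The hepatocyte origin of the libraries was checked with 7 marker genes, which summed to 63789 to 82025 FPKM in the Con group and 73612 to 91331 FPKM in the Exe group. The sum was higher on average in Exe mice (exact two-sided permutation p = 0.0325, adjusted p = 0.130 over the 12 marker lists), and the part of this in the members' values was not tested. Over all genes, each mouse had a total of 735200 to 820107 FPKM. The relative depth of the mice, estimated from 26 genes whose FPKM stepped in whole multiples, lay between 0.991 and 1.02 (largest standard error 0.0045). The estimate started from equal depths and kept only genes that fitted closely, so that larger differences could be missed. The depth in reads is unknown. Exe 5 stood apart from the other Exe mice in the summed markers of pancreatic acinar cells, bile duct cells, B and plasma cells, and T and NK cells, and Con 5 from the other Con mice in those of stellate cells and fibroblasts, a sum in which Exe 1 was close to it (52.8 against 49.0 FPKM). In bulk tissue, a lower number of cells of a type and less RNA per cell cannot be told apart. The p-values of group differences set the difference against the spread between these mice, which limma moderates over all genes.

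Optn (NCBI gene 71648) encodes optineurin, a cargo receptor that binds ubiquitin chains on damaged mitochondria and links them to ATG8 proteins. It lay between 31.6 and 37.7 FPKM in the Con group (median 34.1) and between 33.6 and 36.6 FPKM in the Exe group (median 35.2). Every Exe mouse lay inside the range of the Con mice, with Con 6 the lowest and Con 4 the highest of all. The mean was 34.7 ± 2.26 FPKM in the Con group and 35.0 ± 1.18 FPKM in the Exe group (SD, n = 6 each), a log2 fold change of 0.016 with an adjusted p of 0.977 from limma. The 95% interval of the fold change ran from 0.937 to 1.09 on the FPKM + 1 scale. The sign of this difference was not stable, and under quantile normalization between mice the log2 fold change was -0.011. Optn was also among the transcripts that varied least between mice, since its within-group SD (0.073 on the log2 scale) was at percentile 4.33 of all genes tested, whose median SD was 0.14.

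Sqstm1 (NCBI gene 18412) encodes p62, the cargo receptor that gathers ubiquitinated proteins and is itself consumed with its cargo. At 234.2 FPKM on average over the 12 mice it was the most abundant of the 10 genes, at rank 398 of the 16821 genes, while Optn was at rank 1799. It lay between 208.4 and 263.2 FPKM in the Con group (median 228.6) and between 188.3 and 287.6 FPKM in the Exe group (median 231.8). Both extremes were Exe mice, with Exe 1 below every Con mouse and Exe 5 above every Con mouse. The group means were within a unit of each other and slightly higher in Exe mice in FPKM, at 234.0 ± 24.2 FPKM in the Con group and 234.5 ± 34.3 FPKM in the Exe group (SD, n = 6 each). The log2 fold change was -0.0035 (SE, the standard error of the log2 fold change, 0.098, adjusted p = 0.999 from limma). Exe 5 is the mouse with the high markers of other cell types, and their part in its high Sqstm1 was not tested. Without Exe 5 the log2 fold change of Sqstm1 was -0.065, and without Exe 1 it was 0.057. Within a mouse, Optn was at 0.149 ± 0.0076 of the FPKM of Sqstm1 in the Con group and at 0.153 ± 0.026 in the Exe group (exact two-sided permutation p = 0.859).

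The ATG8 proteins are attached to the growing membrane and are bound by both receptors. Gabarapl1, Map1lc3b and Map1lc3a were followed as members of this family. Gabarapl1 (NCBI gene 57436) lay between 184.4 and 301.7 FPKM in the Con group (median 247.7) and between 167.7 and 276.0 FPKM in the Exe group (median 216.1). Exe 6 and Exe 1 were below every Con mouse, and Con 4 was the highest. The mean was 241.0 ± 44.3 FPKM in the Con group and 218.1 ± 43.1 FPKM in the Exe group (SD, n = 6 each), the farthest apart of the 10 genes on the log2 scale with all 12 mice, though not without Con 4 (Map1lc3b farther, at -0.080) or without Exe 1 (Atg7 farther, at -0.10). With a log2 fold change of -0.15 (SE 0.14), it did not pass the test (adjusted p = 0.931 from limma, exact two-sided permutation p = 0.374). Its 95% interval had the lowest bound of the 10 genes and ran from 0.73-fold to 1.12-fold. The difference depended on single mice, with a log2 fold change of Gabarapl1 of -0.075 without Exe 6, -0.077 without Con 4, -0.088 without Exe 1 and -0.22 without Con 1.

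Map1lc3b (NCBI gene 67443) encodes LC3B, whose lipid-bound form is the usual protein marker of autophagosomes. It lay between 40.3 and 47.0 FPKM in the Con group (median 44.4) and between 38.9 and 44.9 FPKM in the Exe group (median 42.6). Only Exe 2 was outside the range of the Con mice, below it. Its log2 fold change was -0.054 (SE 0.052, adjusted p = 0.931 from limma), and its 95% interval ran from 0.892-fold to 1.04-fold. Map1lc3a (NCBI gene 66734) encodes the related LC3A. It lay between 24.6 and 36.2 FPKM in the Con group (median 31.4) and between 27.2 and 35.3 FPKM in the Exe group (median 30.5), so that all Exe mice were inside the range of the Con mice. Its log2 fold change was -0.0033 (SE 0.092, adjusted p = 0.999 from limma).

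The transcripts of the ATG8 family were dominated by Gabarapl1. Summed over the family (these 3 genes, Gabarap and Gabarapl2, which were named after their values were seen), Gabarapl1 made up 43.9% ± 4.53 of the FPKM in the Con group and 41.0% ± 5.31 in the Exe group. Gabarap followed with 27.6% ± 2.86 and 29.7% ± 2.98, and Gabarapl2 with 14.7% ± 1.44 and 15.4% ± 1.49. Map1lc3b made up 8.16% ± 0.94 in the Con group and 8.06% ± 0.465 in the Exe group, and Map1lc3a 5.68% ± 0.422 and 5.90% ± 0.966 (SD, n = 6 each). The composition did not differ beyond the spread between mice, with exact two-sided permutation p between 0.251 (Gabarap) and 0.846 (Map1lc3b), unadjusted over the 5 genes. The ratio of Gabarapl1 to Map1lc3b within a mouse lay between 4.13 and 7.49 in the Con group and between 4.06 and 6.15 in the Exe group. The ratio of Map1lc3b to Map1lc3a lay between 1.11 and 1.82 in the Con group and between 1.17 and 1.64 in the Exe group. For all 6 ratios between members that were tested, the adjusted p over the 6 exact permutation tests was 0.937.

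Ulk1 (NCBI gene 22241) encodes the kinase that starts autophagy when nutrients or energy are low. It lay between 16.2 and 25.7 FPKM in the Con group (median 21.6) and between 17.0 and 30.6 FPKM in the Exe group (median 18.1). Among the Exe mice there was a high pair, Exe 4 at 30.57 and Exe 2 at 27.04 FPKM, both above every Con mouse, and 4 mice at 16.97 to 18.26 FPKM, all within the range of the Con mice. The group means were close, at 21.4 ± 3.08 FPKM in the Con group and 21.3 ± 5.95 FPKM in the Exe group (SD, n = 6 each), with a log2 fold change of -0.031 ± 0.15 (SE) and an adjusted p of 0.986 from limma. Ulk1 was the most variable of the 10 genes, with a within-group SD of 0.29 on the log2 scale (percentile 90.8 of all genes tested), followed by Gabarapl1 with 0.28 (percentile 89.7). Without Exe 4 the log2 fold change of Ulk1 was -0.14.

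Becn1 (NCBI gene 56208) encodes Beclin 1, a subunit of the lipid kinase complex that marks the site of the new membrane. It lay between 29.1 and 35.7 FPKM in the Con group (median 32.9) and between 30.7 and 34.1 FPKM in the Exe group (median 32.1), with all Exe mice inside the range of the Con mice. The log2 fold change was -0.022 (SE 0.054, adjusted p = 0.969 from limma), and the 95% interval ran from 0.908-fold to 1.07-fold. The ratio of Ulk1 to Becn1 lay between 0.559 and 0.779 in the Con group and between 0.534 and 0.895 in the Exe group.

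Atg7 and Atg5 belong to the conjugation machinery. Atg7 (NCBI gene 74244), the enzyme that activates ATG8 proteins and Atg12, lay between 11.2 and 16.2 FPKM in the Con group (median 13.8) and between 11.98 and 13.94 FPKM in the Exe group (median 12.5). The Exe mice were all inside the range of the Con mice, and 1 of them was above the Con median. The log2 fold change was -0.080 (SE 0.078, adjusted p = 0.931 from limma). Atg5 (NCBI gene 11793), which is joined to Atg12 to form the complex that places ATG8 proteins on the membrane, lay between 17.2 and 19.8 FPKM in the Con group (median 17.9) and between 16.2 and 18.6 FPKM in the Exe group (median 17.5). Exe 1 and Exe 4 were below every Con mouse, and 1 Exe mouse was above the Con median. Its log2 fold change was -0.057 (SE 0.050), with the lowest adjusted p of the 10 genes, 0.929 from limma, and an exact two-sided permutation p of 0.175. Atg5 had the smallest within-group SD of the 10 genes, 0.067 on the log2 scale (percentile 2.69).

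Tfeb (NCBI gene 21425) encodes the transcription factor that activates lysosomal and autophagy genes when it enters the nucleus, and it was the least abundant of the 10 genes. It lay between 2.96 and 4.42 FPKM in the Con group (median 3.71) and between 3.27 and 3.97 FPKM in the Exe group (median 3.80), and every Exe mouse was inside the range of the Con mice. The log2 fold change was 0.017 (SE 0.072, adjusted p = 0.985 from limma), and the added 1 FPKM shrinks the change of so low a gene.

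**Figure D2:**
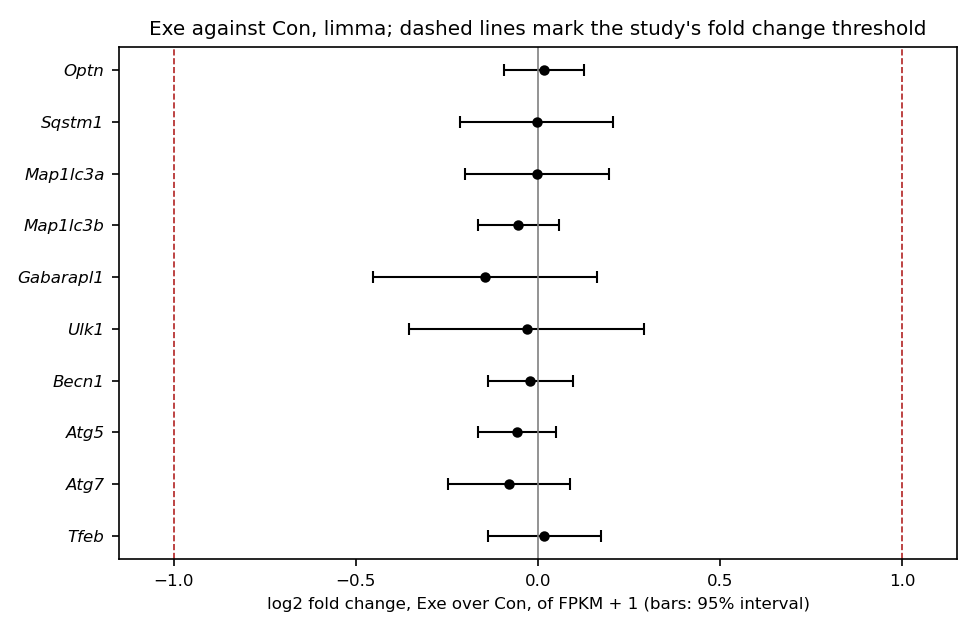
Log2 fold change of Exe over Con mice (horizontal axis, FPKM + 1) for each of the 10 genes, with its 95% interval from limma. All intervals include 0 and stay inside the dashed lines at -1 and 1, the lowest bound being -0.45 for Gabarapl1 and the highest 0.29 for Ulk1.

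The precision of these comparisons can be read from the intervals. Over the 10 genes the 95% intervals of the fold change reached from 0.73-fold to 1.22-fold, within the study's threshold of an absolute log2 fold change over 1. The narrowest belonged to Atg5, Optn, Map1lc3b and Becn1, each with a standard error of 0.050 to 0.054 on the log2 scale. The exact two-sided permutation tests of the log2 values, whose smallest possible p is 0.00216 with 6 mice per group, gave p between 0.175 (Atg5) and 0.978 (Map1lc3a).

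In order of level, Sqstm1 (234.2 FPKM over the 12 mice) and Gabarapl1 (229.5 FPKM) stood at the top and did not differ beyond their spread, since Sqstm1 was the higher in 7 of 12 mice (exact two-sided sign-flip permutation p = 0.486, adjusted over the 9 neighbouring pairs). Gabarapl1 was 5.22 times Map1lc3b (43.3 FPKM), and higher in 12 of 12 mice. Map1lc3b was followed by Optn (34.8 FPKM), Becn1 (32.7 FPKM) and Map1lc3a (31.0 FPKM). Optn was above Becn1 in 10 of 12 mice, by a factor of 1.07 (geometric mean, exact permutation test, adjusted p = 0.00366). Becn1 and Map1lc3a did not differ beyond their spread (adjusted p = 0.143 from the exact permutation test, Becn1 higher in 7 of 12 mice). Ulk1 (21.3 FPKM) was above Atg5 (17.8 FPKM) in 9 of 12 mice, by a factor of 1.18 (geometric mean, exact permutation test, adjusted p = 0.0157). Atg7 (13.2 FPKM) came next, 3.56 times Tfeb (3.70 FPKM). These tests ask only whether a ratio of FPKM repeated over the mice. A bias fixed for a gene, as from the annotation used, would repeat as well and was not tested.

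Between mice, the coefficient of variation over all 12 mice ranged from 4.97% for Optn to 21.2% for Ulk1, and 6 of the 10 genes had a smaller within-group SD than the median gene tested. Con 4 held the highest value of 4 genes (Optn, Map1lc3a, Gabarapl1 and Becn1), and Con 6 the lowest of 3 (Optn, Ulk1 and Becn1). No mouse was high or low in all 10 genes. Con 2 came nearest, above the mean of the 12 mice in 9 genes.

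**Figure D3:**
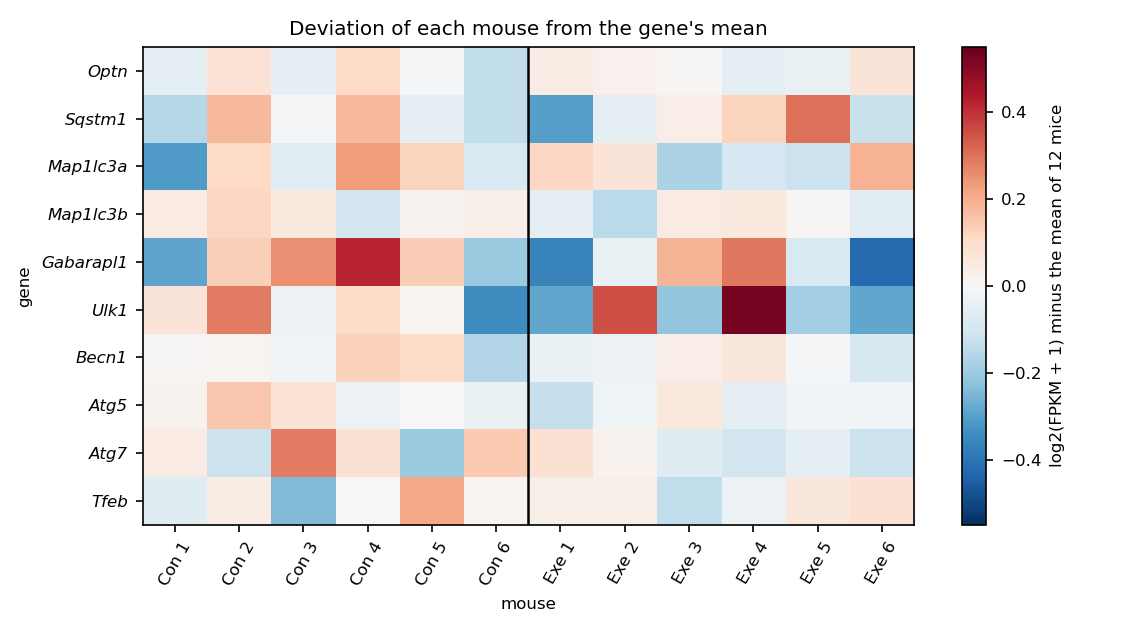
Deviation of each mouse from the mean of the 12 mice (colour, log2(FPKM + 1)) for each gene (rows) and mouse (columns, Con left and Exe right of the line). The rows of Ulk1 and Gabarapl1 are the strongest in colour, with Ulk1 highest in Exe 4 and Gabarapl1 highest in Con 4, and no colour follows the line between groups.

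Whether the members varied together over the 12 mice was tested for the 45 pairs, in which all values of a mouse share its library and scaling. With 100000 permutations and Benjamini-Hochberg adjustment over the 45 pairs, 0 pairs reached an adjusted p of 0.05 by Pearson's r or by Spearman's rho, and 5 pairs passed an unadjusted p of 0.05 by Pearson's r. Optn varied with Map1lc3a (Pearson's r = 0.727, permutation p = 0.00778, adjusted p = 0.175, Spearman's rho = 0.727, permutation p = 0.0102, adjusted p = 0.23). Without Con 4 and Con 6, the mice farthest from the median of Optn, r was 0.753, and it was 0.715 within the Con group and 0.818 within the Exe group. Gabarapl1 varied with Becn1 (r = 0.724, permutation p = 0.00756, adjusted p = 0.175, rho = 0.762, permutation p = 0.00612), and r was 0.687 without Exe 1 and Exe 6. Sqstm1 varied with Gabarapl1 (r = 0.659, permutation p = 0.0217, adjusted p = 0.244, rho = 0.65, permutation p = 0.026), and r was 0.838 without Exe 1 and Exe 5. The opposite relation of Atg7 and Tfeb (r = -0.680, permutation p = 0.0155, adjusted p = 0.233, rho = -0.616, permutation p = 0.0364) rested on Con 3 and Con 5, without which r was -0.074. Map1lc3b and Atg5 made the remaining pair (r = 0.599, permutation p = 0.0399, adjusted p = 0.359, rho = 0.531, permutation p = 0.0806), with r at 0.750 without Con 4 and Exe 2. Under quantile normalization, r of Optn with Map1lc3a was lower, at 0.568 (permutation test, adjusted p = 0.553). It was then 0.641 for Gabarapl1 with Becn1 and 0.704 for Sqstm1 with Gabarapl1. For Atg7 with Tfeb it was -0.557, and for Map1lc3b with Atg5 0.717. These correlations do not pass the correction. Some other pairs had r of opposite sign within the groups, so that a small r over the 12 mice does not show that a pair is unrelated. For Optn with Sqstm1, r was 0.914 within the Con group and -0.826 within the Exe group. For Optn with Becn1 it was 0.802 and -0.801. Both pairs were picked for their opposite signs, each r rests on 6 mice, and the difference between groups was not tested.

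**Figure D4:**
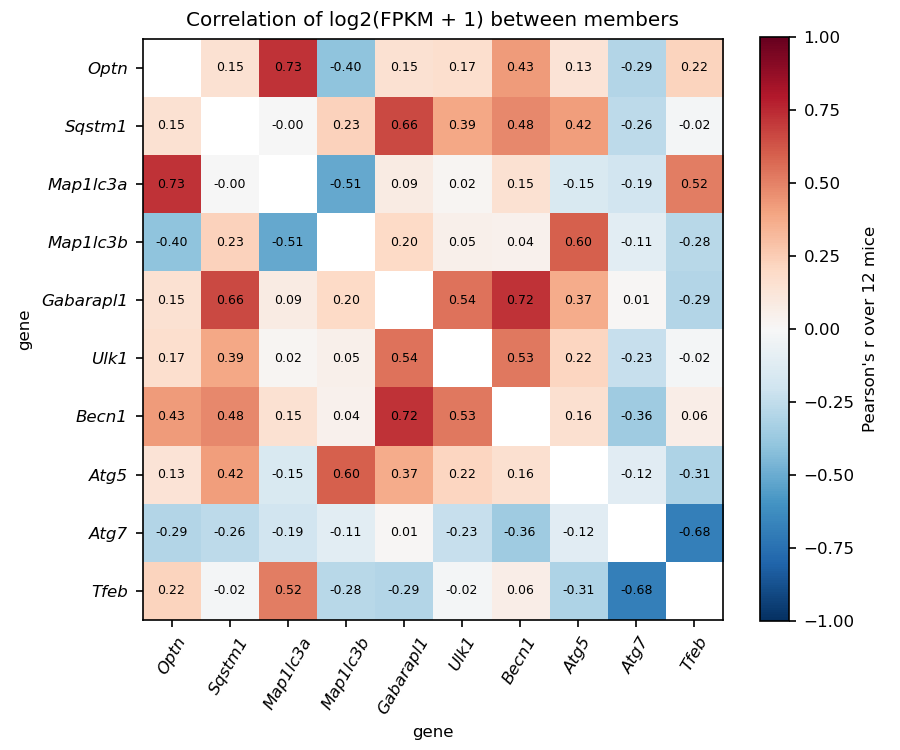
Pearson's r of log2(FPKM + 1) over the 12 mice for the 45 pairs of genes (colour and printed value). The highest values are those of Optn with Map1lc3a (0.73) and Gabarapl1 with Becn1 (0.72), and the lowest is that of Atg7 with Tfeb (-0.68), none of which passes the adjustment over 45 pairs.

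The other genes of the pathway were followed in 10 lists that cover initiation, the lipid kinase complex, membrane supply (ATG9, ATG2 and WIPI proteins), conjugation, the ATG8 family, cargo receptors, mitophagy, fusion with lysosomes, the TFEB family with mTORC1 control, and lysosomal genes. Of 105 genes with the members included, 101 were tested, 48 of them higher and 53 lower in Exe mice (39 and 62 under quantile normalization), while 57.5% of all genes tested were higher. Their median log2 fold change was -0.0034 beside 0.016 over all genes tested. The log2 fold changes lay between -0.22 and 0.17. None reached an adjusted p of 0.05 with limma, and at an unadjusted p of 0.05 there was 1 gene higher and 2 lower in Exe mice, beside 4.27% higher and 1.94% lower of all genes tested. The count of 3 was 8 under quantile normalization, 1 without Con 2, Exe 1, Exe 2 or Exe 6, 5 without Exe 3 or Exe 4, and 6 without Exe 5. Among the genes under the filter were Mitf, a relative of Tfeb (0.50 to 0.85 FPKM over the 12 mice), Rragb (0 to 0.08 FPKM) and Rragd (0.16 to 0.39 FPKM), all named after their values were seen.

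By step of the pathway, 2 of 5 genes of the initiation complex, 1 of 7 of the lipid kinase complex and 3 of 7 of membrane supply were higher in Exe mice. The most abundant of them were Atg101 (31.1 ± 3.12 FPKM in the Con group and 30.4 ± 3.13 FPKM in the Exe group), Becn1 and Wdr45 (26.6 ± 2.94 and 24.8 ± 2.07 FPKM). Of the conjugation machinery 4 of 11, of the ATG8 family 2 of 5, and of the cargo receptors 7 of 9 genes were higher, with 4 of 9 receptors higher under quantile normalization. The medians of these 6 lists lay between -0.030 and 0.016 on the log2 scale, and 1 gene, Atg3, passed an unadjusted p of 0.05.

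Atg3, the enzyme that passes ATG8 proteins on to the membrane lipid, was at 32.7 ± 2.06 FPKM in the Con group and 37.1 ± 4.46 FPKM in the Exe group (SD, n = 6 each), with 4 of 6 Exe mice above every Con mouse. Its log2 fold change was 0.17 (SE 0.077), with an adjusted p of 0.799 from limma and an exact two-sided permutation p of 0.0606. The adjusted p lay between 0.533 and 0.999 over the alternatives, and the unadjusted p of Atg3 stayed at or under 0.05 in 8 of 19, with its highest value of 0.112 without Exe 2.

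Of the mitophagy genes, 6 of 9 were higher in Exe mice (4 of 9 under quantile normalization), with Fkbp8, a receptor on the outer membrane of mitochondria, as the most abundant (155.0 ± 6.72 FPKM in the Con group and 162.7 ± 13.4 FPKM in the Exe group, adjusted p = 0.931 from limma). Usp30, the mitochondrial enzyme that strips ubiquitin and so opposes mitophagy, was at 6.90 ± 0.321 FPKM in the Con group and 6.28 ± 0.425 FPKM in the Exe group. With a log2 fold change of -0.12 (SE 0.054) it had an unadjusted p of 0.0449 and an adjusted p of 0.799 from limma, and 3 of 6 Exe mice were below every Con mouse. Its unadjusted p stayed at or under 0.05 in 10 of the 19 alternatives, in which its adjusted p lay between 0.589 and 0.999. Without Exe 1 the unadjusted p of Usp30 was 0.103.

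Among the genes of fusion with lysosomes, 5 of 11 were higher in Exe mice, and Lamp1, a glycoprotein of the lysosomal membrane, was the most abundant (270.6 ± 5.72 FPKM in the Con group and 263.8 ± 10.7 FPKM in the Exe group). Of the TFEB family and mTORC1 control 10 of 15 were higher, with Lamtor1, which anchors mTORC1 control on lysosomes, as the most abundant (41.1 ± 4.44 and 45.2 ± 4.27 FPKM, log2 fold change 0.13, adjusted p = 0.859 from limma).

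The lysosomal genes, many of them known targets of TFEB, had a median log2 fold change of -0.057, with 8 of 22 higher in Exe mice. It was the lowest median of the 10 lists, but this rank was not stable. The median of the conjugation machinery was the lower without Con 1, Con 4, Exe 2, Exe 4 or Exe 6, and with the filter at 5 FPKM. With a mouse left out, the median of the lysosomal genes lay between -0.054 and -0.028. Ctsl, a lysosomal protease, was the most abundant of the lysosomal genes (459.2 ± 51.7 FPKM in the Con group and 440.9 ± 84.6 FPKM in the Exe group). Glb1, the lysosomal beta-galactosidase, was at 6.47 to 8.45 FPKM in the Con group and 6.22 to 6.73 FPKM in the Exe group, with 4 of 6 Exe mice below every Con mouse. Its mean was 7.64 ± 0.648 FPKM in the Con group and 6.41 ± 0.196 FPKM in the Exe group (SD, n = 6 each), a log2 fold change of -0.22 (SE 0.057). It had the lowest unadjusted p of the 10 lists (0.00201), but the adjusted p was 0.666 from limma over all genes tested and lay between 0.504 and 0.999 over the alternatives. The unadjusted p of Glb1 was at or under 0.05 in 19 of 19 alternatives. Under quantile normalization, 5 of the 22 lysosomal genes (Glb1, Ctsb, Ctsa, Hexa and Neu1, which encode proteases and glycosidases and, apart from Glb1, were named after their values were seen) were lower in Exe mice at an unadjusted p of 0.05, beside 2.61% of all genes tested, and 0 at an adjusted p of 0.05 with limma. With the scaling of the deposited values Glb1 was the only one of them past an unadjusted p of 0.05.

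**Figure D5:**
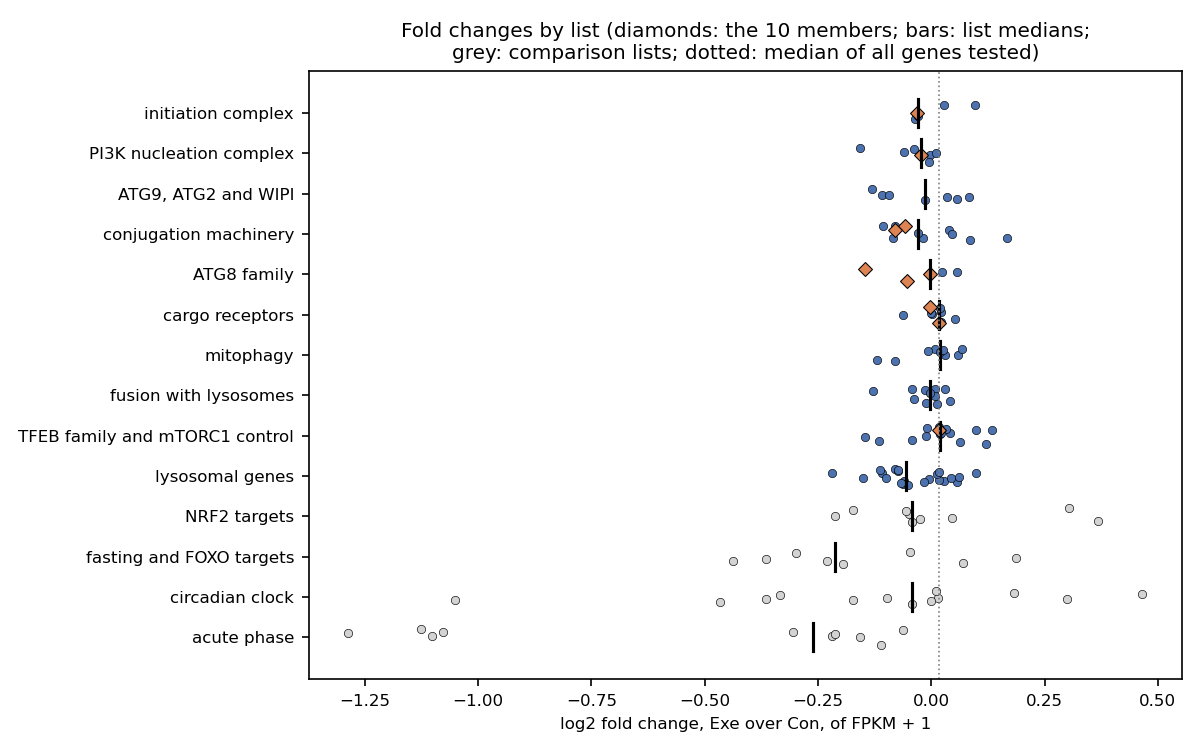
Log2 fold change of Exe over Con mice (horizontal axis, FPKM + 1) for the genes of the 10 autophagy lists (blue, with the 10 members as orange diamonds) and of 4 comparison lists (grey). Bars mark list medians and the dotted line the median of all genes tested, and the autophagy genes stay between -0.22 and 0.17 while the comparison lists spread from -1.29 to 0.47.

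Transcripts of 4 other programmes were set beside the autophagy genes for comparison. The 9 tested NRF2 targets (NRF2 is held back by a protein that p62 can bind) had a median log2 fold change of -0.042, with 3 higher in Exe mice. Of 8 tested fasting and FOXO targets 2 were higher (median -0.21), and Klf15, a transcription factor of the fasting liver, was at 85.4 ± 11.0 FPKM in the Con group and 66.3 ± 10.1 FPKM in the Exe group (log2 fold change -0.36, standard error 0.11, unadjusted p = 0.00443, adjusted p = 0.756 from limma). Of 13 tested clock genes 5 were higher (median -0.043), and of 10 acute-phase genes 0 (median -0.26), with 2 of the 10 higher under quantile normalization. Most abundant in the 4 lists were Gstm1, a glutathione transferase (log2 fold change 0.30), Pck1, an enzyme of glucose synthesis (-0.44), Dbp, a clock output factor (-0.47), and Hp, haptoglobin (-0.061). None of these genes reached an adjusted p of 0.05 with limma. The mean log2 level of the acute-phase genes lay between 7.38 and 10.9 in the Con group and between 7.41 and 10.8 in the Exe group, a far wider range over the mice than that of any of the 10 autophagy genes.

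The 10 genes were correlated with the mean log2 level of each of these 4 lists over the 12 mice, a choice made after the values had been seen. Of 40 relations, 0 reached an adjusted p of 0.05 by Pearson's r or Spearman's rho with 100000 permutations, and 2 passed an unadjusted p of 0.05 by Pearson's r. Sqstm1 was higher in mice with higher NRF2 targets (r = 0.726, permutation p = 0.00782, adjusted p = 0.313, rho = 0.636, permutation p = 0.0291). Without Con 4 and Exe 5, r was lower but still positive at 0.501 (permutation p = 0.142, from fewer mice). It was 0.386 within the Con group and 0.962 within the Exe group. Map1lc3a was lower in mice with higher acute-phase genes (r = -0.615, permutation p = 0.0353, adjusted p = 0.558, rho = -0.636, permutation p = 0.0294), and without Con 1 and Exe 5 r was -0.369 (permutation p = 0.285).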

How the data were processed

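Liver RNA of 12 mice was sequenced on the DNBseq platform. The authors used principal component analysis to leave out outlying samples. Filtered reads were aligned by the authors to GRCm39 with HISAT, and the authors deposited FPKM with 2 decimals, in a file per mouse. The submitters' processing notes also name Bowtie2 and mm10. Which tool and annotation gave the FPKM is not given in the sources used here. FPKM are not counts, so the DESeq analysis of the study was not repeated.

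Log2(FPKM + 1) of genes with at least 1 FPKM in at least 6 mice was fitted with limma 3.58.1 in R 4.3.3 (lmFit, eBayes with trend, group as the only term) across all genes, with Benjamini-Hochberg adjustment. The fit and the estimate of relative depth were tested on simulated data, the latter only with depths near each other. Permutation tests were run in Python 3.11.15 (numpy 2.4.6, pandas 2.3.3, scipy 1.17.1, figures with matplotlib 3.10.9). For correlations 100000 permutations were drawn. Mice that stood apart were found by Dixon's ratio at its 95% critical value.

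Groups were taken from the sample titles. The values of 1 gene of the lists are not reported here. The members and lists were chosen with earlier results of these data known. Named were the 10 members, the most abundant gene of each list, list genes with an unadjusted p of at most 0.05, the 2 genes most like each member, and up to 3 markers in a mouse that stood apart. The 4 comparison lists hold NRF2 targets, fasting and FOXO targets, clock genes and acute-phase genes. Marker lists covered hepatocytes, Kupffer cells, sinusoidal endothelium, stellate cells, bile duct, neutrophils, B and plasma cells, T and NK cells, red blood cells, pancreatic acini, skeletal muscle and adipose tissue. Alternatives were quantile normalization, a pseudocount of 0.1, no filter, a filter at 5 FPKM, robust or untrended variances, the replicate number as a block, and each mouse left out in turn.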

Additional observations from a re-analysis of the deposited data

Results flagged for a closer look

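Of the 20 sets of 6 mice formed by the 10 autophagy genes in both groups, 0 had a mouse far from the others by Dixon's ratio, where chance gives about 1. Over all 56 sets tested, with the 12 marker lists and the 6 ratios between members, 5 did, where chance gives 2.8.

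All 5 were marker lists, and 4 of them concern Exe 5. The pancreatic acinar markers summed to 20.6 FPKM in Exe 5 and 0.80 to 2.94 FPKM in the other Exe mice, led by Amy2a5 (6.60 FPKM), Cela2a (3.42 FPKM) and Pnlip (2.42 FPKM). The bile duct markers summed to 76.8 FPKM in Exe 5 against 25.4 to 40.3 FPKM, of which Spp1 made up 71.3 FPKM. Among all 12 mice Exe 5 was not apart in this list, since the sum reached 75.0 FPKM and Spp1 71.1 FPKM in Con mice, and Krt19 was at 1.61 FPKM in Exe 5 and up to 18.1 FPKM in the other mice. The T and NK cell markers summed to 8.43 FPKM against 3.08 to 4.55 FPKM, and the B and plasma cell markers to 8.61 FPKM against 5.34 to 6.46 FPKM. Among the latter, Cd79a (3.29 FPKM) was above the other 11 mice, but Jchain (1.81 FPKM) and Cd79b (1.34 FPKM) were within their range. In Con 5, the markers of stellate cells and fibroblasts summed to 49.0 FPKM against 85.5 to 97.3 FPKM in the other Con mice. Of this list, Col3a1 (2.08 FPKM) was below the other 11 mice. Dcn (41.0 FPKM), which made up most of the sum, was near the bottom of their range (40.8 to 77.2 FPKM). Lrat (1.95 FPKM) was well inside it (1.17 to 3.12 FPKM). The lowest sum of the Exe mice was 52.8 FPKM. The part of these cells in the members' values was not tested. Without Exe 5, and without Con 5, 0 of the 10 genes passed an unadjusted p of 0.05.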

How the results depend on the processing

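The alternatives gave 752 values, of which 678 agreed in sign and call with the reported one or moved little from it. Of the rest, 53 were reversed in sign and 21 moved. The filters, the variance settings and the block leave the log2 fold change of a gene unchanged by construction. The fold changes were also counted again with the exact tests, so that many of the 678 were bound to agree. In each of the 19 alternatives, 0 of the 10 genes reached an adjusted p of 0.05 with limma. Over all genes, 1 reached it without the filter on low values. The genes higher in Exe mice numbered 1 under quantile normalization and under the stricter filter, which drops Tfeb, and 1 to 5 with a mouse left out. Pathway genes at an unadjusted p of 0.05 numbered 8 under quantile normalization (6.03% of all genes), 6 without the filter (5.34% of all genes), and 1 (without Con 2, 5.77% of all genes) to 6 (without Exe 5, 8.90% of all genes) with a mouse left out.

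The labels do not say whether the replicate numbers pair the mice, and values over all genes do not decide this for a single gene. The deviations of equally numbered mice correlated between -0.478 and 0.165 across genes, and 1 of 6 Con mice was most like the Exe mouse of its number. With the replicate number as a block, 1 of the 10 genes passed an unadjusted p of 0.05, beside 5.54% of all genes. This was Gabarapl1, at an adjusted p of 0.864 from limma, with an SE of 0.051 in place of 0.14.

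Signs were not stable where differences were small. Under quantile normalization the log2 fold change of Optn was -0.011. With each mouse left out, the log2 fold change lay between -0.0090 and 0.040 for Optn, -0.065 and 0.057 for Sqstm1, -0.066 and 0.042 for Map1lc3a, -0.14 and 0.023 for Ulk1, -0.056 and 0.0013 for Becn1, and -0.030 and 0.061 for Tfeb. The log2 ratios lay between -0.13 and 0.016 for Map1lc3b to Map1lc3a, -0.17 and 0.0039 for Gabarapl1 to Map1lc3b, -0.0024 and 0.11 for Sqstm1 to Map1lc3b, -0.047 and 0.093 for Optn to Sqstm1, -0.018 and 0.084 for Atg5 to Atg7, and -0.11 and 0.044 for Ulk1 to Becn1. The cause was not tested.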

Other observations

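The genes whose pattern over the 12 mice was most like that of each member, after the group means were removed, were chosen as the highest of all genes tested, so their correlations are a description with no test. For Optn they were Slc17a1 (Pearson's r = 0.886) and Faf1 (0.863), for Sqstm1 Rtn4rl1 (0.936) and Pkm (0.93), for Gabarapl1 Slc39a8 (0.944) and Dnajc13 (0.914), and for Ulk1 2310022B05Rik (0.948) and Akap8 (0.932). For Map1lc3a they were Creld1 (0.939) and Zfp507 (0.909), for Map1lc3b Il1r1 (0.882) and Dnaja4 (0.853), and for Becn1 Eef1b2 (0.887) and Eapp (0.856). For Atg5 they were Mettl18 (0.844) and Rrm2 (0.809), for Atg7 Echdc1 (0.917) and Rbbp9 (0.861), and for Tfeb Gimap8 (0.865) and Lsm5 (0.852). None of these 20 genes is on a list of the pathway.

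The summed markers of the other cell types a liver sample could hold overlapped between groups in every list. Kupffer cell markers summed to 155.0 to 285.2 FPKM in the Con group and 108.9 to 269.7 FPKM in the Exe group, sinusoidal endothelial markers to 49.2 to 81.7 and 59.5 to 70.8 FPKM, and markers of stellate cells and fibroblasts to 49.0 to 97.3 and 52.8 to 96.9 FPKM. Bile duct markers summed to 27.2 to 75.0 and 25.4 to 76.8 FPKM, neutrophil markers to 13.5 to 35.4 and 10.3 to 53.1 FPKM, B and plasma cell markers to 3.19 to 5.83 and 5.34 to 8.61 FPKM, and T and NK cell markers to 2.59 to 5.07 and 3.08 to 8.43 FPKM. Red blood cell markers summed to 235.2 to 903.6 and 400.5 to 1291 FPKM, pancreatic acinar markers to 0.69 to 1.23 and 0.80 to 20.6 FPKM, skeletal muscle markers to 0.29 to 1.26 and 0.29 to 1.61 FPKM, and adipose markers to 931.2 to 2226 and 1017 to 1852 FPKM. Only 2 of the 6 adipose markers had a mean of at least 1 FPKM. Their sum rests on these and was not taken as a measure of adipose tissue. The lowest p of the 12 lists was that of B and plasma cell markers (exact two-sided permutation p = 0.0195, adjusted p = 0.130 over the 12 lists), and those of hepatocytes and of pancreatic acinar cells, also higher on average in Exe mice, followed (exact two-sided permutation p = 0.0325 and adjusted p = 0.130 for each). No marker gene in the files was at 0 in all 12 mice.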
